A study of Mus musculus with 18 samples.

Results

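The cells described here are the hematopoietic stem and progenitor cells (HSPCs) of newborn mouse bone marrow, compared by the deposited cluster code they fell into. They were taken from the postnatal day 0 (P0) library of hematopoietic progenitors (HP) wherever the authors' final annotation of a cell began with HSPC, which gave 1505 of the 6208 cells of that library and of the 56201 cells of the series. The 3 codes were HSPC2 with 692 cells, HSPC3 with 701 cells and HSPC4 with 112 cells. The study profiled perinatal and adult bone marrow by CITE-Seq, which reads the transcripts of single cells together with counts of barcoded antibodies bound to their surface. HSPC codes of the HP libraries from embryonic days 16.5 and 18.5 and from adult mice are set beside the P0 codes near the end. The P0 HP library was 1 sample of C57B6/J bone marrow, pooled from several pups and sorted for lineage-negative Kit-positive cells; the labels give no treatment and no engineered allele. Because it was 1 library of pooled animals, no test across samples was possible, and every interval below is a 95% interval that covers counting error only. The clusters were built from these transcripts, so transcript differences between codes are descriptions of how the codes were drawn. The antibody counts were not used for the clustering.

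Long-term hematopoietic stem cells (LT-HSCs) sit at the top of the blood hierarchy and are defined in the mouse by surface Sca-1 and CD150 without CD48 or CD135. Around birth many of them divide, whereas most adult stem cells rest outside the cell cycle. Short-term stem cells (ST-HSCs) and multipotent progenitors (MPP2 biased to megakaryocyte and erythroid fates, MPP3 to myeloid and MPP4 to lymphoid fates) follow, and differ from the LT-HSC in these surface proteins. Hlf and Mecom encode transcription factors that maintain stem cells, and Cd34 encodes a surface sialomucin of early progenitors.

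The codes differed in size and in RNA content per cell. HSPC2 held 11.1% of the library's cells, HSPC3 11.3% and HSPC4 1.80%. The median cell held 13934.5 UMIs (unique molecular identifiers, each counting 1 captured transcript) in HSPC2, 22422 in HSPC3 and 46141 in HSPC4. The shallowest HSPC4 cell, with 28044 UMIs, lay above the upper quartile of HSPC3, which was 27738. In HSPC4, 96 of 112 cells (85.7%) were above the library's 90th percentile of 36605 UMIs, against 35 cells (4.99%) of HSPC3 and 6 cells (0.867%) of HSPC2. The summed depth was 10405583, 15920028 and 5023737 UMIs for HSPC2, HSPC3 and HSPC4. Of the 1505 cells, 25 carried a barcode sequence that also occurred in another library of the series, 13 in HSPC2, 12 in HSPC3 and 0 in HSPC4.

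The deposited cell cycle phase separated HSPC2 from the other codes. G1 cells, those with neither an S nor a G2M program, made up 25.9% of HSPC2 (179 cells, 22.6 to 29.3%). None of the 701 HSPC3 cells was in G1, which allows a share of up to 0.428%, and none of the 112 HSPC4 cells, which allows up to 2.68%. G2M cells made up 15.2% of HSPC2, 45.4% of HSPC3 and 36.6% of HSPC4, the remainder being in S. The G1 cells of HSPC2 were also its smallest in RNA content, with a median of 9286 UMIs against 15533 in its S cells and 20481 in its G2M cells. The authors regressed phase scores and UMIs per cell out of the expression values before clustering, and the codes still differed in both. Whether free RNA or depth entered the phase calls was not tested.

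**Figure D1:**
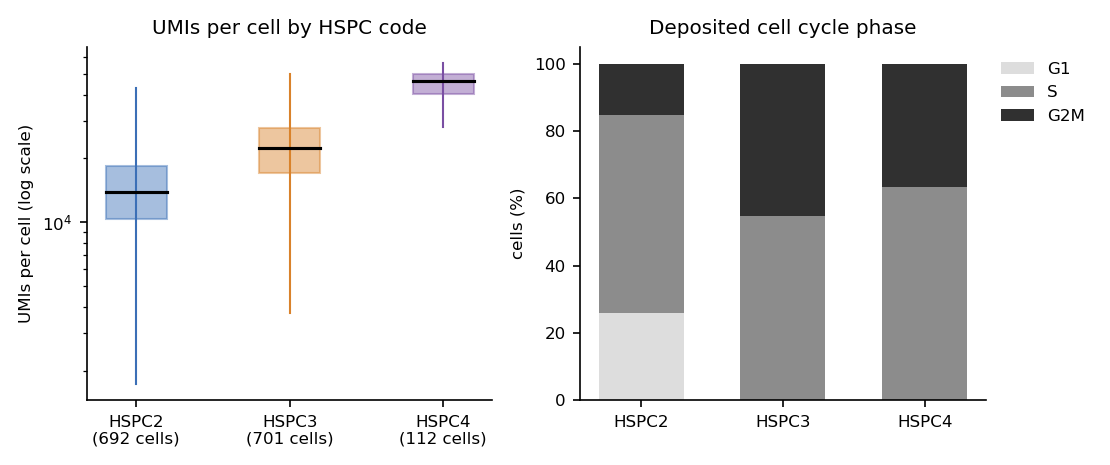
Left, UMIs per cell on a log scale for the 3 HSPC codes of the P0 library (line, lowest to highest cell; box, quartiles; black bar, median). Right, share of cells in each deposited phase. HSPC4 lies above the other codes with a median of 46141 UMIs, and G1 cells appear in HSPC2 alone, at 25.9%.

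The label HSPC was checked against Hlf, Mecom and Cd34. Each cell was thinned at random to 5000 UMIs so that depth did not set the share of cells with a transcript, which left out 11 cells of HSPC2, 3 of HSPC3 and 0 of HSPC4. Hlf was then found in 48.0% of HSPC2 cells (44.2 to 51.8%), 38.1% of HSPC3 (34.5 to 41.8%) and 22.3% of HSPC4 (15.0 to 31.2%). Without thinning these shares were 71.8%, 66.8% and 52.7%. In B, T and mast cell codes, which should lack Hlf, the thinned share was 2.64%. Mecom was found in 16.6% of HSPC2, 13.9% of HSPC3 and 5.36% of HSPC4 after thinning, against 0.311% in the B, T and mast cell codes. Cd34 was found in 78.0%, 78.1% and 50.9%, but also in 27.1% of the B, T and mast cell codes. No transcript of the 3 was found in 9.10% of HSPC2, 13.0% of HSPC3 and 37.5% of HSPC4, against 68.0% of cells outside the HSPC codes. That share was 26.2% in the lymphoid progenitor code LymP, 38.7% in the mast cell code Mast3 and 44.3% in the myeloid progenitor code MyP2. The share of HSPC4 thus lay between those of LymP and Mast3. HSPC2 and HSPC3 therefore carried the stem markers more often than HSPC4 did. All 3 codes carried Hlf and Mecom above the share in the B, T and mast cell codes.

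Of all codes in the library, HSPC2 had the highest level of Hlf, Mecom, Mycn, Procr and Ctla2a. Levels are given as CPM, the UMIs of a gene per 1000000 UMIs summed over the cells of a code. Hlf was at 151 CPM in HSPC2 (144 to 159), 113 in HSPC3 (108 to 119) and 39.4 in HSPC4 (34.1 to 45.3), against 11.5 CPM over all cells outside the HSPC codes. Mecom was at 35.1, 27.3 and 9.16 CPM, against 1.98 outside. Mycn, a MYC family transcription factor, was at 45.6, 21.8 and 7.17 CPM. Procr, which encodes the EPCR receptor of stem cells, was at 13.9, 7.91 and 3.58 CPM. Ctla2a, a protease inhibitor gene of the stem cell signature, was at 1163, 671 and 322 CPM. Over all cells of a code, the order HSPC2, HSPC3, HSPC4 held for each of these genes. The intervals of neighbouring codes did not overlap. The smallest gap in CPM was that of Procr between HSPC3 (6.59 to 9.42) and HSPC4 (2.12 to 5.66). Cd34 was nearly level between HSPC2 and HSPC3, at 343 (331 to 354) and 323 (314 to 332) CPM, and lower in HSPC4 at 197. The step from HSPC3 to HSPC4 was not the same in cells of 32768 to 65536 UMIs, a range that held 17 cells of HSPC2, 66 of HSPC3 and 106 of HSPC4 with medians of 34825, 36762 and 46431 UMIs. There Hlf was at 86.7 CPM (65.0 to 113), 46.3 (38.2 to 55.6) and 35.7 (30.6 to 41.5) in HSPC2, HSPC3 and HSPC4. Mecom was at 34.4, 7.71 (4.64 to 12.0) and 7.64 (5.38 to 10.5) CPM and Mycn at 34.4, 6.49 (3.71 to 10.5) and 7.23 (5.03 to 10.1), both level between HSPC3 and HSPC4. Procr gave 3, 4 and 16 UMIs, at 4.91, 1.62 and 3.30 CPM with overlapping intervals. Ctla2a turned, at 612 CPM in HSPC2, 186 (170 to 204) in HSPC3 and 312 (296 to 328) in HSPC4, while Cd34 was at 283, 303 and 195 CPM.

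Measured against the other HSPC codes pooled, 206 of 10926 genes with at least 50 UMIs (1.89%) were at least 2-fold higher in HSPC2 and 283 (2.59%) at least 2-fold lower. The genes that led were Ltb, a TNF family cytokine (59.1 against 20.6 CPM), Gimap5, a GTPase of the immunity-associated family (56.1 against 24.3), Ung, a uracil glycosylase of DNA repair (61.3 against 27.6), Myct1 (75.6 against 34.3) and Ly6a, which encodes Sca-1 (60.9 against 29.2). Of 23 stem cell regulators counted out of 25 listed, 22 were above a ratio of 1 in HSPC2 with a median of 1.33, against a median of 1.03 over all genes, and 2 of them, Mycn and Gfi1b, were past 2-fold. Of 30 surface and signature genes counted out of 33, 29 were above 1 with a median of 1.53. All 24 interferon response genes were above 1, with a median of 1.44, among them Isg15 (77.9, 51.8 and 31.5 CPM in HSPC2, HSPC3 and HSPC4) and Irf7 (50.8, 32.98 and 28.7). These genes were not highest in HSPC2, since the lymphoid progenitor code LymP held 125 CPM of Isg15 and 77.4 of Irf7. Over all cells, all 14 immediate early genes counted, which respond to growth signals and to tissue dissociation, were above 1 with a median of 1.43, none past 2-fold. Their order between HSPC2 and HSPC3 changed with depth, as given below.

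Hbb-bt, a beta globin gene, led the genes of HSPC2 over the rest of the library. It was at 432 CPM in HSPC2, 313 in HSPC3 and 80.6 in HSPC4, against 31.9 CPM in the erythroid code EryP1. Its UMIs were uneven among cells, with a median of 1 per cell in HSPC2 and in HSPC3. The 70 cells of HSPC2 with the most Hbb-bt held 56.5% of them and the 71 of HSPC3 61.6%. Hbb-bs, the near-identical neighbour of Hbb-bt, was at 2.11, 2.51 and 0.597 CPM in the 3 HSPC codes and at 29.4 in EryP1. Reads of such copies can be split between them by the counting, so the division between the pair is uncertain. Histone genes, used below, share this limit.

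HSPC3 was set apart from the other HSPC codes by replication histones and mitotic genes. Of the 10926 genes, 94 (0.86%) were at least 2-fold higher in HSPC3 than in the other HSPC codes pooled and 176 (1.61%) at least 2-fold lower. All 10 leading genes were replication histones. Hist1h2ae was at 744 CPM in HSPC3 (731 to 758), 71.3 in HSPC2 (66.3 to 76.6) and 330 in HSPC4 (314 to 346), and Hist1h1b, a linker histone, at 838, 83.3 and 425. Top2a, the topoisomerase of dividing cells, was at 554, 163 and 351 CPM, and Mki67, the proliferation marker, at 249, 88.5 and 177. Of the 45 G2M phase genes, 44 were above a ratio of 1 in HSPC3 and 8 past 2-fold, while 19 were at least 2-fold lower in HSPC2, where the median was 0.52. The S phase genes moved less, with a median of 1.20 in HSPC3 and 0.85 in HSPC2 and 0 of 32 past 2-fold upward in HSPC3. The exception among the G2M genes was Ccnb2, a mitotic cyclin, at 95.04 CPM in HSPC2 and 87.8 in HSPC3.

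**Figure D2:**
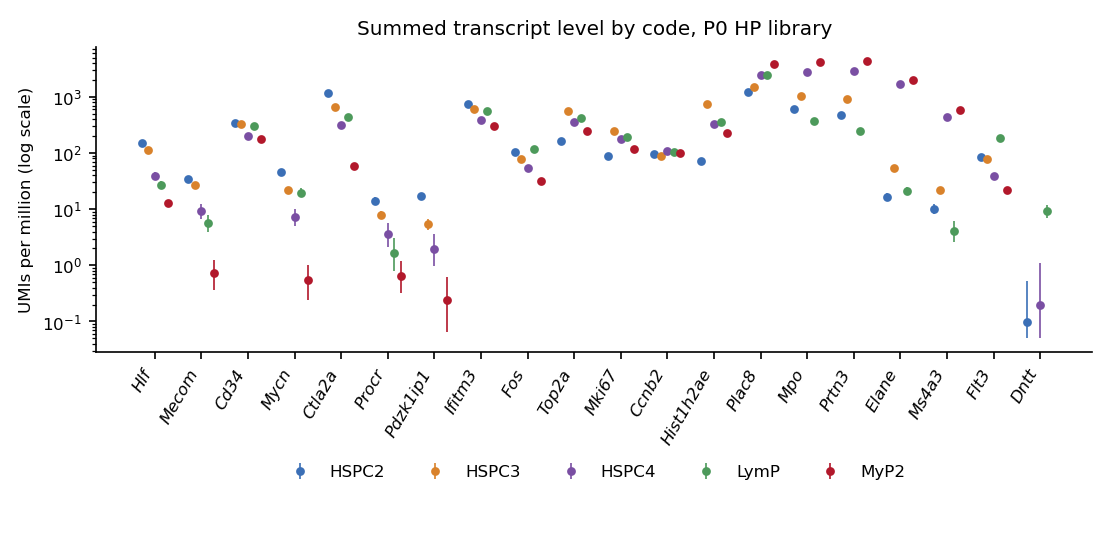
Transcript level in CPM (log scale) of 20 named genes in the 3 HSPC codes, the lymphoid progenitor code LymP and the myeloid progenitor code MyP2, with exact Poisson 95% intervals (lower ends cut at 0.05). Levels of 0 are not drawn. Over all cells of a code, stem genes at the left fall from HSPC2 to HSPC4, Top2a, Mki67 and Hist1h2ae peak in HSPC3 among the HSPC codes, and the granule genes Mpo, Prtn3, Elane and Ms4a3 rise toward HSPC4 and MyP2.

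Set directly against HSPC3, HSPC2 had 158 of 10657 genes (1.48%) at least 2-fold higher and 206 (1.93%) at least 2-fold lower. The myeloid progenitor genes were among the lower ones, with 9 of 22 past 2-fold and a median ratio of 0.56, a direction that turned in cells under 16384 UMIs. Mpo, the myeloperoxidase of granulocyte precursors, was at 598 CPM in HSPC2 and 1023 in HSPC3, and Ctsg, a granule protease, at 132 and 420. Of 15 lymphoid priming genes counted out of 20 listed, 9 were above a ratio of 1 with a median of 1.03, and 1 was past 2-fold, Ltb at 59.1 and 22.9 CPM. Over all genes, 5804 of 10657 were above 1, with a median of 1.02. Flt3, the receptor of lymphoid-primed progenitors, was at 83.6 (78.1 to 89.4) and 79.0 (74.7 to 83.5) CPM, and Dntt, an early lymphoid enzyme, gave 1 UMI in HSPC2 and 0 in HSPC3.

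Since the codes differed in UMIs per cell, the levels of HSPC2 and HSPC3 were set side by side in cells of like depth, in 4 ranges that each span a doubling of UMIs. The ranges held 75 and 13 cells of HSPC2 and HSPC3 at 4096 to 8192 UMIs, 365 and 130 at 8192 to 16384, 228 and 491 at 16384 to 32768, and 17 and 66 at 32768 to 65536. Depth was not fully matched within a range, with medians of 12154 and 13757.5 UMIs in the second and 20339 and 23409 in the third.

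The ratio of Hlf in HSPC2 over HSPC3, which was 1.33 (1.24 to 1.43) in all cells, was 1.11 (0.76 to 1.69), 0.60 (0.54 to 0.67), 0.98 (0.88 to 1.10) and 1.88 (1.33 to 2.62) from the shallowest to the deepest range. For Mecom, at 1.29 in all cells, it was 1.79 (0.72 to 5.74), 0.57 (0.46 to 0.71), 0.66 (0.50 to 0.85) and 4.46 (2.28 to 8.77). Both genes were thus lower or level in HSPC2 in the 2 ranges that held most cells, and higher beyond the interval only in the deepest, with 17 cells of HSPC2. Ctla2a, at 1.73 in all cells, was at 1.90 (1.57 to 2.32), 1.19 (1.14 to 1.25), 1.04 (1.00 to 1.08) and 3.29 (2.86 to 3.78). Ltb, the leading gene of HSPC2, was past 2-fold at both ends, at 2.46 (1.21 to 5.84) and 3.23 (1.56 to 6.55), but not in the middle ranges, at 1.11 (0.91 to 1.36) and 1.03 (0.79 to 1.33). Mycn kept a ratio above 1 in each range, at 1.54 (0.71 to 3.97), 1.38 (1.05 to 1.84), 1.37 (1.11 to 1.68) and 5.29 (2.63 to 10.9).

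Myeloid and cycle genes also changed with depth. Mpo, at 0.58 in all cells, was higher in HSPC2 at 8192 to 16384 UMIs, at 440 against 208 CPM and a ratio of 2.11 (1.89 to 2.37), and lower at the next depths, at 0.79 (0.76 to 0.82) and 0.41 (0.37 to 0.45). At 4096 to 8192 UMIs its ratio was 1.66 (0.87 to 3.57). Top2a was lower in HSPC2 in the first 3 ranges, with ratios of 0.040 (0.023 to 0.066), 0.107 (0.094 to 0.122) and 0.40 (0.37 to 0.43), and level in the deepest at 1.04 (0.92 to 1.17).

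Over the lists in cells of 16384 to 32768 UMIs, 12 of 23 stem cell regulators, 19 of 26 surface and signature genes and 6 of 23 interferon genes were above a ratio of 1. Over all genes counted, 5116 of 9849 were. The medians of the lists were 1.03, 1.07 and 0.95, against 1.01 over all genes.

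The summed level of the stem lists went with UMIs per cell in both codes. Stem cell regulators together were at 3532, 2505, 1955 and 2070 CPM in HSPC2 from the shallowest to the deepest range and at 3554, 3037, 1921 and 1538 in HSPC3. They were thus higher in HSPC3 at 8192 to 16384 UMIs, higher in HSPC2 at 32768 to 65536, and had overlapping intervals at the other depths. The surface and signature genes were at 8893, 6006, 3595 and 3412 CPM in HSPC2 and at 6537, 6054, 3493 and 1996 in HSPC3, with overlapping intervals at 8192 to 16384 UMIs alone. Myeloid progenitor genes were at 2091, 3071, 4317 and 4152 CPM in HSPC2 and at 1422, 1865, 5357 and 9069 in HSPC3. HSPC2 was thus the higher code for the myeloid list in the 2 shallower ranges and the lower one in the 2 deeper ranges. G2M genes were at 2076, 3054, 5665 and 9530 CPM in HSPC2 and at 10826, 9015, 7811 and 7912 in HSPC3, so that HSPC3 was higher in the first 3 ranges and HSPC2 in the deepest. Immediate early genes were at 2598, 2050, 1178 and 1213 CPM in HSPC2 and at 3228, 1657, 1266 and 731 in HSPC3. For that list HSPC3 was higher at 4096 to 8192 and at 16384 to 32768 UMIs, and HSPC2 at the other depths.

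**Figure D3:**
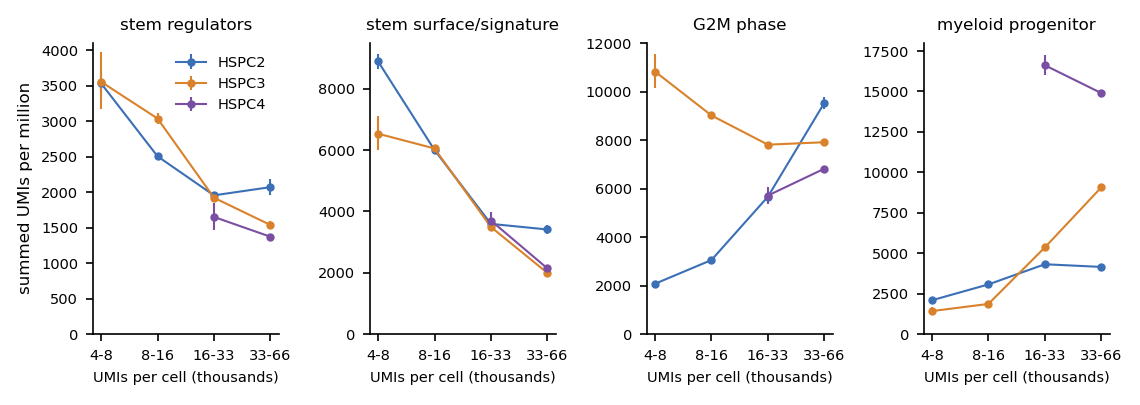
Summed CPM of 4 gene lists (vertical axes from 0) in cells of the 3 HSPC codes grouped by UMIs per cell in doublings (horizontal axis, log scale), with exact Poisson 95% intervals; groups under 5 cells are not drawn. Up to 32768 UMIs the stem lists fall with UMIs per cell in HSPC2 and HSPC3, from 3532 and 3554 CPM of stem regulators at the lowest depth to 1955 and 1921 in cells of 16384 to 32768 UMIs, while the G2M genes of HSPC3 start at 10826 and those of HSPC2 at 2076.

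Surface antibodies, which the clustering did not use, were counted for CD48, CD150, CD135 and Sca-1 at this stage. A cell was called positive where its centered log-ratio, the natural log of 1 plus its count over the antibody's geometric mean across the library's cells, was above 1. Sca-1+ cells made up 55.3% of HSPC2 (51.6 to 59.1%), 47.9% of HSPC3 (44.2 to 51.7%) and 39.3% of HSPC4 (30.2 to 49.0%), against 1.85% of MyP2 and 52.1% of LymP. The order of HSPC2 and HSPC3 depended on depth. At 4096 to 8192 UMIs Sca-1+ cells were 66 of 75 (88%) and 10 of 13 (76.9%), with overlapping intervals. At 8192 to 16384 UMIs Sca-1+ cells made up 67.4% of HSPC2 (62.3 to 72.2%) and 84.6% of HSPC3 (77.2 to 90.3%), and at 16384 to 32768 UMIs 25.4% (19.9 to 31.6%) and 42.0% (37.5 to 46.5%), both turned, while at 32768 to 65536 UMIs they were 8 of 17 and 9 of 66. CD48+ cells, CD48 being lost on the most primitive cells, made up 44.1% of HSPC2 (40.3 to 47.9%), 53.9% of HSPC3 (50.2 to 57.7%) and 84.8% of HSPC4 (76.8 to 90.9%). The difference between HSPC2 and HSPC3 was not seen at 8192 to 16384 UMIs, with 40.3% (35.2 to 45.5%) and 30.8% (23.0 to 39.5%), nor at 16384 to 32768 UMIs, with 60.1% in each, and at 32768 to 65536 UMIs 16 of 17 and 42 of 66 cells were CD48+. CD150+ cells made up 14.9%, 11.7% and 27.7% in the same order, against 74.5% of the megakaryocyte progenitor code MegP1. CD135+ cells, CD135 being the Flt3 protein, made up 11.6%, 17.4% and 18.8%, against 49.0% of LymP. These shares depended on the level from which cells were called positive. CD135+ cells made up 24.7%, 32.1% and 25.9% from a level of 0.75 and 1.45%, 3.28% and 3.57% from 1.5. CD48+ cells made up 3.90%, 9.27% and 35.7% from 1.5. CD135 was thinly counted, with a median of 1 count per cell in each HSPC code, whereas the median CD48 count was 132.5, 161 and 256 in HSPC2, HSPC3 and HSPC4.

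Gates for the stem and progenitor classes were then placed on these antibodies. The LT-HSC gate (Sca-1+ CD150+ CD48- CD135-) held 49 cells of HSPC2, or 7.08% of the code (5.28 to 9.25%), 25 of HSPC3, or 3.57% (2.32 to 5.22%), and 1 of HSPC4, or 0.893% (0.0226 to 4.87%). The ST-HSC gate (Sca-1+ CD150- CD48- CD135-) held 22.5% of HSPC2, 13.3% of HSPC3 and 3.57% of HSPC4. These differences between HSPC2 and HSPC3 were not seen beyond the intervals in cells of like depth. At 4096 to 8192 UMIs the LT-HSC gate held 11 of 75 and 3 of 13 cells, and the ST-HSC gate 57.3% (45.4 to 68.7%) and 38.5% (13.9 to 68.4%). At 8192 to 16384 UMIs the LT-HSC gate held 10.1% of HSPC2 (7.24 to 13.7%) and 9.23% of HSPC3 (4.86 to 15.6%) and the ST-HSC gate 26.8% (22.4 to 31.7%) and 35.4% (27.2 to 44.2%). At 16384 to 32768 UMIs the LT-HSC gate held 1 of 228 and 10 of 491 cells and the ST-HSC gate 10 and 39, and at 32768 to 65536 UMIs the LT-HSC gate held 0 cells of either code. With positive cells called from a level of 1.5 in place of 1, it held 4.77% of HSPC2 (3.31 to 6.63%), 3.85% of HSPC3 (2.55 to 5.55%) and 6.25% of HSPC4 (2.55 to 12.5%), with overlapping intervals. The gates were not confined to HSPC codes, since 39 of the 114 cells in the LT-HSC gate lay outside them, 0.829% of the other cells. The monocyte code Mono1 had 7.56% of its cells in the LT-HSC gate, and in the ST-HSC gate the dendritic code DC3 had 36.2% and the B cell code Bcell1 28.5%. MPP2 cells made up 4.05% of HSPC2 and 3.85% of HSPC3, MPP3 cells 13.4% and 15.1%, and MPP4 cells 4.19% and 5.42%, with overlapping intervals at this level over all cells. In HSPC4 these 3 gates held 6.25%, 15.2% and 8.04%. From a level of 0.75 they held 11.6%, 17.0% and 11.6% of HSPC4, and from 1.5 they held 0.893%, 5.36% and 2.68%. Without the cells of highest doublet score, described below, they held 2%, 10% and 8%. The shares of the ST-HSC and MPP gates depended on where positive cells were called. From a level of 0.75, MPP4 cells made up 10.1% of HSPC2 (7.97 to 12.6%) and 15.8% of HSPC3 (13.2 to 18.8%), intervals that did not overlap, and from 1.5 they were 0 and 1 cells. MPP3 cells were 17.9% and 16.5% of HSPC2 and HSPC3 from 0.75 and 1.45% and 2.71% from 1.5, and 29.6% and 27.5% with all HP libraries scaled together. MPP2 cells were 6.07% and 5.42% from 0.75 and 0.578% and 0.571% from 1.5. ST-HSC cells were 13.0% and 6.13% from 0.75 and 37.4% and 29.0% from 1.5, higher in HSPC2 beyond the intervals at each level over all cells. Antibody counts also moved with UMIs per cell. In cells of 16384 to 32768 UMIs the median CD48 count was 171.5 in HSPC2 and 174 in HSPC3, and the mean Sca-1 count 17.4 and 34.9, with medians of 4 and 6.

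Within HSPC2 and within HSPC3, surface Sca-1 went with higher stem and lower myeloid transcripts, and also with higher Hbb-bt. Of 9341 genes counted in HSPC2, 391 (4.19%) were at least 2-fold higher in its 383 Sca-1+ cells than in its 309 Sca-1- cells and 83 (0.889%) at least 2-fold lower. In HSPC3, with 336 and 365 cells, 523 of 9804 (5.33%) were higher and 142 (1.45%) lower. Ly6a, the Sca-1 gene, was at 122 against 7.04 CPM in HSPC2 and 80.1 against 4.82 in HSPC3. Hlf was at 235 against 76.9 CPM in HSPC2 and 222 against 40.8 in HSPC3. Mecom was at 63.1 against 10.5 CPM in HSPC2 and 58.1 against 6.70 in HSPC3. The Sca-1+ cells of the 2 codes were also compared by depth. At 8192 to 16384 UMIs they held Hlf at 241 CPM in HSPC2 and 361 in HSPC3 and Mecom at 68.9 and 95.7. Depth was not fully matched there, with medians of 11533.5 and 13749 UMIs. At 16384 to 32768 UMIs Hlf was nearly level, at 175 and 180 CPM, and Mecom was at 32.6 and 48.3. Between Sca-1+ and Sca-1- cells Mpo went the opposite way to Hlf and Mecom, at 270 against 886 CPM in HSPC2 and 334 against 1482 in HSPC3. Hbb-bt was at 745 against 156 CPM in HSPC2 and 649 against 89.4 in HSPC3, ratios of 4.78 (4.44 to 5.16) and 7.26 (6.74 to 7.82), and in the cells of the LT-HSC gate at 1438 and 1350 CPM.

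By list, 15 of 28 stem surface and signature genes were past 2-fold upward in the Sca-1+ cells of HSPC2 and 18 of 29 in those of HSPC3. Of the myeloid progenitor genes, 10 of 19 were past 2-fold downward in HSPC2 and 18 of 22 in HSPC3, with median ratios of 0.48 and 0.31. Dendritic cell markers moved with Sca-1 in HSPC3, where 4 of 5 genes counted (9 listed) were past 2-fold upward with a median of 20.8. Cd74, the class II invariant chain, gave 278 UMIs in Sca-1+ and 11 in Sca-1- cells, but 30 of 336 Sca-1+ cells held all 278 and 1 cell held 86. In HSPC2, where 0 of 2 counted were past 2-fold, no cell held more than 1 Cd74 UMI. Erythroid genes had 2 of 6 counted (18 listed) past 2-fold upward in HSPC2 and 2 of 5 in HSPC3, none downward, with medians of 1.49 and 1.75. The part of the dendritic and erythroid transcripts in the Sca-1 result was not tested. Interferon genes had 7 of 23 past 2-fold upward in each code, with medians of 1.74 and 1.75. The G2M genes differed between the codes, with a median of 0.66 in HSPC2, where 8 of 44 were past 2-fold downward, and 1.23 in HSPC3, where 0 of 45 were. Sca-1+ cells held fewer UMIs than Sca-1- cells, with medians of 11472 against 17255 in HSPC2 and 18146 against 25927 in HSPC3. In cells of 16384 to 32768 UMIs alone, the ratio of Sca-1+ to Sca-1- cells was 2.63 (2.17 to 3.18) for Hlf in HSPC2 and 4.29 (3.76 to 4.92) in HSPC3, and for Mpo it was 0.416 (0.376 to 0.459) and 0.235 (0.222 to 0.248).

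**Figure D4:**
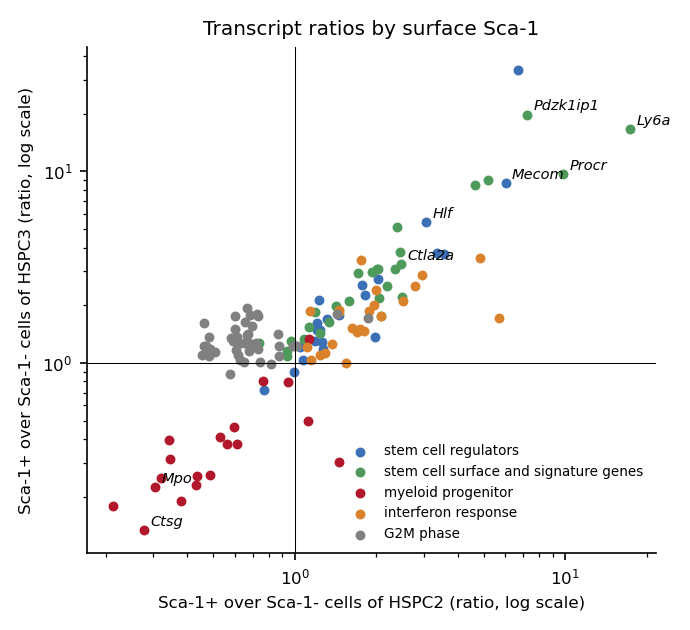
Ratio of the transcript level in Sca-1+ over Sca-1- cells (log scales), HSPC2 on the horizontal and HSPC3 on the vertical axis; each point is a gene of 5 lists with a ratio above 0 in both codes. Lines mark a ratio of 1. Stem genes lie at the upper right (Mecom at 6.02 and 8.68), myeloid genes at the lower left (Mpo at 0.304 and 0.225), and G2M genes lie mostly below 1 in HSPC2 and above 1 in HSPC3.

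In the cells of the LT-HSC gate, HSPC2 and HSPC3 differed beyond their intervals in Top2a, Mki67, Ly6a and Ifitm1. These were 4 of a picked panel of 26 genes. The share over all genes was not computed in the gated cells, so the panel does not show how alike they were otherwise. Hlf was at 292 CPM (247 to 343) in the 49 gated cells of HSPC2 and 314 (260 to 376) in the 25 of HSPC3. Mecom was at 158 (125 to 196) and 142 (107 to 186), Mllt3, a regulator of stem cell maintenance, at 162 (129 to 201) and 137 (102 to 180), and Procr at 70.1 (49.1 to 97.1) and 50.1 (30.2 to 78.2). For each of these 4 genes the intervals overlapped. Ly6a was higher in HSPC2, at 168 (134 to 207) and 79.1 (53.4 to 113) CPM, and so was Ifitm1, an interferon-inducible gene of the stem signature, at 1243 (1148 to 1343) and 936 (841 to 1039). Top2a was at 74.0 (52.4 to 102) and 712 (630 to 802) CPM, and Mki67 at 23.4 (12.1 to 40.8) and 327 (272 to 390). G1 cells made up 61.2% (46.2 to 74.8%) of the gated cells of HSPC2 and 0 of the 25 of HSPC3, which allows up to 12%. The gated cells had a median of 10215 UMIs in HSPC2 and 15000 in HSPC3.

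The hscScore, a deposited score per cell from a published classifier of stem cell transcriptomes, fell from HSPC2 to HSPC4 over all cells. Its mean was 0.0959 ± 0.110 (SD over 692 cells) in HSPC2, 0.00966 ± 0.0219 over 701 cells in HSPC3 and -0.00209 ± 0.00544 over 112 cells in HSPC4. It was above 0.15 in 160 cells of HSPC2 (23.1%), 2 of HSPC3 (0.285%) and 0 of HSPC4, which allows up to 2.68%. The score did not set the HSPC codes above the rest of the library, as 13.1% of all other cells were above 0.15 against 10.8% of the 3 codes together. Several other codes lay far above HSPC2, with 96.4% of Neu2, 82.0% of BCell2, 76.2% of Eos/Bas3 and 75.5% of Mast4. The score also fell with UMIs per cell. In HSPC2 it averaged 0.252 in cells of 4096 to 8192 UMIs, 0.116 in cells of 8192 to 16384 and 0.0146 in cells of 16384 to 32768, and in HSPC3 0.0620, 0.0334 and 0.00372. At 32768 to 65536 UMIs it averaged -0.00259 in HSPC2, -0.00408 in HSPC3 and -0.00263 in HSPC4, and the 6 cells of HSPC4 at 16384 to 32768 UMIs averaged 0.00748. The mean of HSPC2 was thus above that of HSPC3 in each range. In all ranges but the shallowest the difference was less than the SD over cells of HSPC2 (0.0959, 0.0198 and 0.00516). In the deepest it was also less than that of HSPC3 (0.00372). The mean of HSPC4 was not below that of HSPC3 in either range in which it held cells. In the LT-HSC gate at 8192 to 16384 UMIs, 37 cells of HSPC2 averaged 0.218 ± 0.115 and 12 cells of HSPC3 0.0540 ± 0.0288, with medians of 10929 and 13771 UMIs, so that depth was not fully matched.

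HSPC4 did not have the profile of the other HSPC codes. Its leading genes over them were granule genes, against its name, so it is called here by its deposited code alone. Of 10926 genes, 257 (2.35%) were at least 2-fold higher and 518 (4.74%) at least 2-fold lower than in the other HSPC codes pooled. Elane, neutrophil elastase, was at 1696 CPM in HSPC4 against 39.8, S100a8, a calcium-binding protein of neutrophils, at 1157 against 29.6, Ms4a3, a marker of granulocyte-monocyte progenitors, at 436 against 17.4, and Cebpe, a granulocyte transcription factor, at 71.7 against 3.57. Mpo was at 2807 CPM (2761 to 2854) and Prtn3, proteinase 3, at 2908. Both were lower than in MyP2, at 4122 and 4349 CPM. Of 22 myeloid progenitor genes, 15 were past 2-fold upward with a median of 3.74. Of 30 stem surface and signature genes counted, 16 were past 2-fold downward, among them Esam, an endothelial and stem cell adhesion molecule, and Procr, with a median of 0.43. Of 23 stem cell regulators, 6 were past 2-fold downward, namely Mycn, Mecom, Nkx2-3, Hlf, Mllt3 and Hoxa9. The stem differences depended on depth. In cells of 32768 to 65536 UMIs the summed myeloid progenitor genes were at 4152 CPM in HSPC2, 9069 (8950 to 9189) in HSPC3 and 14899 (14791 to 15008) in HSPC4. The surface and signature genes were at 3412, 1996 (1940 to 2052) and 2143 (2102 to 2185) CPM, higher in HSPC4 than in HSPC3, and the stem cell regulators at 2070, 1538 (1489 to 1588) and 1372 (1339 to 1405). Of the granule genes, Elane was at 21.3, 168 and 1661 CPM in HSPC2, HSPC3 and HSPC4 at this depth, S100a8 at 8.18, 17.0 and 1093, Ms4a3 at 13.1, 78.3 and 435, and Mpo at 741, 1806 and 2803. HSPC4 was thus the highest of the 3 HSPC codes for each of these 4 genes there, too.

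Transcripts of several other lineages were raised in HSPC4 as well. Past 2-fold upward were 4 of 4 neutrophil genes counted (8 listed), 3 of 3 eosinophil genes (7 listed), 9 of 10 mast cell and basophil genes (11 listed), 5 of 6 B cell genes (10 listed) and 8 of 12 erythroid genes (18 listed). Many of these passed the count minimum through HSPC4 itself, so the counts are descriptive. The 12 HSPC4 cells with the most UMIs of a list held 82.5% of the code's neutrophil UMIs, 96.5% of its eosinophil UMIs, 72.5% of its mast cell UMIs and 71.2% of its B cell UMIs. The 70 top cells of HSPC2, chosen in the same way, held 42.9%, 93.3%, 73.7% and 39.6% of that code's UMIs of these lists. The 71 top cells of HSPC3 held 80.0%, 58.8%, 64.8% and 35.8%. High shares were thus not confined to HSPC4, and for mast cell UMIs HSPC2 had a slightly higher one. A share also rises where UMIs are few, so the codes are not like for like. Neutrophil UMIs numbered 326, 1301 and 8178 in HSPC2, HSPC3 and HSPC4, with 5, 859 and 1342 in the highest cell. Eosinophil UMIs numbered 356, 177 and 1184, with 248, 3 and 714 in it. Mast cell UMIs numbered 1521, 1887 and 3031, with 393, 233 and 488 in it, and B cell UMIs 507, 667 and 559, with 6, 11 and 147. For the myeloid progenitor list the 12 top cells of HSPC4 held 26.5%, and for the stem cell regulators 16.4%. Erythroid transcripts lay between, with 37.2% in the 12 top cells. The myeloid genes differed among themselves. The 12 top cells held 26% of Mpo UMIs, 29.2% of Prtn3 and 33.3% of Ctsg, but 42.8% of Elane. Elane had a median of 9.5 UMIs per cell, and its highest cell held 353. The medians of Mpo, Prtn3 and Ctsg were 109, 84.5 and 49.5. For each of these genes the top cells of HSPC2 and HSPC3 held a higher share, with 55.6% and 76.7% of Elane. Those shares rest on 171 and 878 Elane UMIs, with a median of 0 per cell, against 8522 in HSPC4.

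High doublet scores were frequent in HSPC4. Scrublet, which scores each cell by its likeness to simulated pairs of cells, put 62 of 112 HSPC4 cells (55.4%, 45.7 to 64.8%) among the highest 5% of scores of the library, against 9 of HSPC2 (1.30%) and 6 of HSPC3 (0.856%). The 62 cells had a median of 44634.5 UMIs and the other 50 a median of 46644. The score was computed from these same transcripts. Level differences between the 62 and the 50 therefore describe how the score divided the code and are not separate evidence of mixed droplets. Elane was at 1141 CPM (1098 to 1185) in the 50 other cells against 2165 (2110 to 2221) in the 62, and Mpo at 2694 (2628 to 2762) against 2903 (2839 to 2967). In the 50 other cells S100a8 was at 305 against 1875 in the 62, Prg2, an eosinophil granule protein, at 8.26 against 348, Cma1, a mast cell chymase, at 6.96 against 202, and Ebf1, a B cell transcription factor, at 0.870 against 35.6. Hlf was at 21.3 CPM (15.8 to 28.2) in the 50 and 54.7 (46.3 to 64.2) in the 62, and Mecom at 4.78 and 12.8. Without the highest scores in any HSPC code, 183 of 10757 genes (1.7%) were at least 2-fold higher and 745 (6.93%) at least 2-fold lower in HSPC4. Of the myeloid progenitor genes 14 of 22 were then past 2-fold upward, with a median of 3.30, and of the stem surface and signature genes 18 of 30 downward. Fewer B cell and eosinophil genes passed the count minimum once those cells were left out. Of the 2 B cell genes and 1 eosinophil gene still counted, 0 were upward, with medians of 0.65 and 0.54. These counts cover fewer genes than those over all cells and are not like for like. Of the erythroid genes 3 of 10 were upward and 2 downward, of the mast cell and basophil genes 5 of 8 upward and of the neutrophil genes 2 of 2. Whether any HSPC4 droplet held more than 1 cell was not tested.

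The neighbours of each cell in expression space were then counted by code. Of the links from a cell to its nearest neighbours, 73.6% of those from HSPC2 and 74.1% of those from HSPC3 ended in their own code. For HSPC4 13.2% did. The codes differ in size, and these shares were 6.60, 6.56 and 7.29 times each code's share of the library in HSPC2, HSPC3 and HSPC4. Of the HSPC4 links 27.7% ended in MyP2 and 21.9% in HSPC3. When the library was clustered again from the counts, 80.5% of HSPC3 fell in 1 cluster, and HSPC2 divided, with 51.7% in a cluster that was 91.8% HSPC2 and 31.7% in a cluster that was 44.4% HSPC2. HSPC4 was spread over 12 clusters, the largest holding 28.6% of it, and was the most frequent code in none. The links and this clustering left out the authors' regression of phase scores and UMIs per cell. They therefore differ in procedure from the clustering that made the codes. Over 13047 genes the summed profile of HSPC4 was most like that of MyP2, with a Pearson correlation of 0.984, followed by HSPC3 at 0.979. HSPC2 and HSPC3 were each most like the other, at 0.987. These correlations run across genes of 1 library, and genes are not independent replicates.

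**Figure D5:**
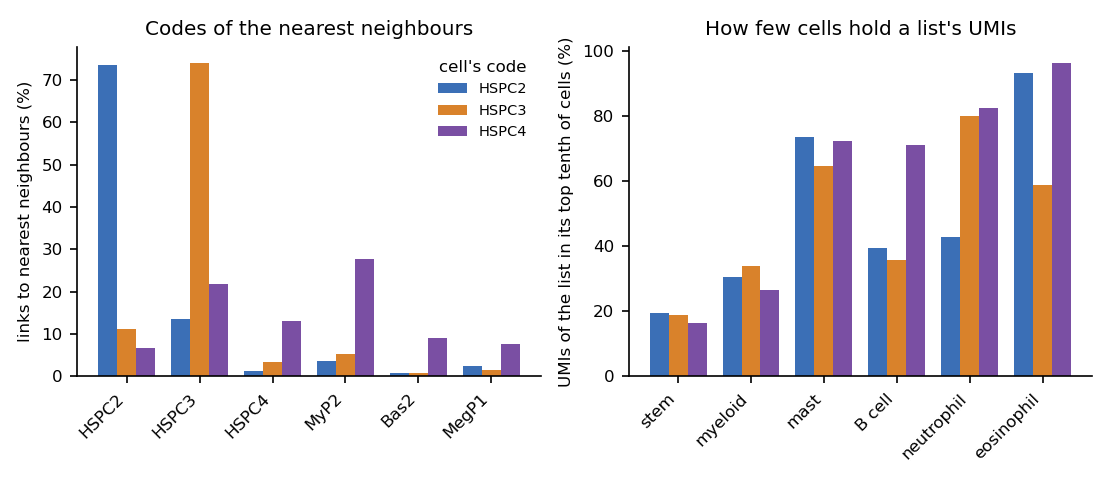
Left, share of links to nearest neighbours (percent) that ended in each code, by the code of the cell. Right, share of a list's UMIs in a code (percent) held by the tenth of its cells with the most UMIs of that list. HSPC4 has 13.2% of its links within the code against 73.6% and 74.1% for HSPC2 and HSPC3. Its 12 top cells hold 96.5% of its eosinophil UMIs, against 93.3% for those of HSPC2 and 58.8% for those of HSPC3. These shares rest on 1184, 356 and 177 UMIs in HSPC4, HSPC2 and HSPC3.

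Of the 3 codes, only HSPC2 also held cells in another library of the series. At embryonic day 18.5 it held 388 cells, with a median of 25054 UMIs against 13934.5 at P0 and with 12.6% of cells in G1 against 25.9%. Over all cells Hlf was at 157 CPM (149 to 165) against 151 (144 to 159) and Mecom at 34.9 against 35.1, with overlapping intervals. Other stem genes differed, with Ctla2a at 489 CPM against 1163, Ly6a at 41.0 against 60.9 and Ifitm1 at 453 against 574, all lower at E18.5, and Hoxa9, a homeobox regulator, at 121 against 74.4. Depth was not matched between the stages, and stem levels moved with depth at P0. The P0 HSPC2 cells of 16384 to 32768 UMIs, with a median of 20339, held Hlf at 93.5 CPM, Mecom at 14.9 and Ctla2a at 702. The E18.5 cells were not divided by depth, so whether these genes were level at like depth was not tested. Mki67 was at 203 CPM at E18.5, between the P0 values of HSPC2 at 88.5 and HSPC3 at 249, and Top2a at 367, between 163 and 554. In the adult library the stem code was HSPC5, with 629 cells, Hlf at 115 CPM, Dntt at 336 CPM and Lin28b, a fetal RNA-binding protein, at 0 against 21.5 CPM in HSPC2 and 18.97 in HSPC3 at P0. Hmga2, a fetal chromatin protein, was at 38.0 CPM in the adult code and at 297, 273 and 160 CPM in HSPC2, HSPC3 and HSPC4. Each stage and code is a single library here, so that stage and library cannot be told apart.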

How the data were processed

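The members and the gene lists were chosen with earlier results of these data known. Per the labels, the authors made the P0 HP library with 10x Chromium 3' v3.1 chemistry, and their processing notes name Cell Ranger 3.1.0, Seurat 3.1.5, R 4.0 and build mm10. They deposited raw UMI counts per gene and antibody and a table with cluster codes, phase, the mitochondrial fraction per cell and the hscScore score of each cell. The authors removed cells with few UMIs, a high mitochondrial share or the highest UMI and gene numbers, the last against doublets. Here no cell was removed. Scrublet scores (scanpy 1.11.5) served as an alternative.

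Counts were summed per code and divided by the code's total (CPM). Genes needed 50 UMIs in the 2 sides together, and a gene was counted as higher or lower from 2-fold. Intervals were exact Poisson for levels, exact conditional binomial for ratios and exact Clopper-Pearson for shares. Where 0 cells were found, the limit is 3 counts of the total. Thinning was to 5000 UMIs. The clustering again used 2000 variable genes, 30 principal components, 20 neighbours and Leiden resolution 1, with no regression of UMIs, mitochondrial share or phase scores. Named genes were those of 27 lists and the 10 genes with the highest ratio per code among those with at least 50 UMIs and 50 CPM in it, mitochondrial and ribosomal protein genes and Gm42418 left out. Of the cell table, 9 of 17 columns were not used. The summaries were tested on simulated data, in which counts were drawn without differences between the cells of a code. Unevenness between cells was thus not covered by that check. Alternatives are given in the closing section.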

Additional observations from a re-analysis of the deposited data

How the results depend on the processing

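No paired analysis was possible because the P0 HP library is 1 sample and no result comes from a test. Clustering the library again gave HSPC2 14.2% and HSPC4 0% of the library by most frequent code, and leaving out the 5% highest doublet scores gave HSPC4 0.846%. Counts of genes past the fold moved with its size. At 1.5-fold they were 907 higher and 532 lower in HSPC2, 319 and 552 in HSPC3 and 520 and 1314 in HSPC4, and at 3-fold 15 and 130, 39 and 62, and 136 and 161. With at least 20 UMIs they were 450 higher in HSPC2, 145 higher and 368 lower in HSPC3 and 871 lower in HSPC4, and with at least 200 UMIs 47 and 165 in HSPC2, 52 lower in HSPC3 and 112 and 178 in HSPC4. S phase cells alone gave 131 higher in HSPC2 and 307 lower in HSPC4, a mean over cells 211 higher in HSPC3, and the cells without the highest doublet scores 115 lower in HSPC3. The LT-HSC gate held 4.77% of HSPC2, 3.85% of HSPC3 and 6.25% of HSPC4 at a level of 1.5, where the intervals of HSPC2 and HSPC3 overlapped, 2.00% of HSPC3 with all HP libraries scaled together and 0% of HSPC4 without the highest doublet scores. Sca-1+ shares were 62.6%, 54.4% and 49.1% in HSPC2, HSPC3 and HSPC4 at a level of 0.75 and likewise with all HP libraries together, 44.9%, 38.4% and 28.6% at 1.5, and 26% in HSPC4 without the highest doublet scores. The ratio of S100a8 in HSPC2 over HSPC3 turned from 0.437 to 1.23 without the highest doublet scores. In HSPC3, 1 cell held 388 of the code's 605 S100a8 UMIs. The causes were not tested. Of the other values under an alternative, 37 summary values and 187 values of single genes or lists stayed within their interval or within 1.5 times, and 157 further values of single genes or lists moved by more. The G1 cells alone could not be compared, since HSPC3 and HSPC4 held 0. The S phase cells, the comparisons in cells of like UMIs and the fold counts without the highest doublet scores were chosen after seeing the data. Depth limits the rare transcripts, such as Dntt with 1 UMI in HSPC2.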

Other observations

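HSPC1, found at embryonic day 16.5 alone, held 33 cells in 1 library and 165 in the other, with Hlf at 19.2 and 21.2 CPM and Mecom at 0 and 1.87 CPM. The adult code HSPC5 held 32.1% of its cells in G1 and a median of 7636 UMIs per cell.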
